A study of Mus musculus with 9 samples.

Results

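Of the 45037 probe sets on the arrays other than controls, 15 were assigned by the platform annotation to 1 of 9 myeloid growth factor receptor genes and to no other gene, and all 15 are described here. They read Csf1r (3 probe sets), Csf2ra (2), Csf2rb (2), Csf2rb2 (1), Csf3r (1), Il3ra (1), Il6ra (2), Kit (2) and Flt3 (1). They were chosen by name and not by signal. All 15 reached the brightness filter of the test, a mean signal of 9.006. Another 1 probe set (1450200_s_at) is assigned to Csf2rb2 and Csf2rb together and was not counted. Its signals were 1.16 to 7.09 on the 9 arrays, below the filter.

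The cells were EYFP-positive granulocyte-macrophage progenitors (GMPs), the bone marrow cells from which neutrophils and monocytes arise, sorted from mouse marrow for Affymetrix expression arrays. The 3 null arrays come from donors with floxed Dicer1 on both alleles, the 3 het arrays from donors with a heterozygous Dicer deletion and the 3 wt arrays from Dicer wild-type donors. Donors of all 3 groups carried Cebpa-Cre and the R26-LSL-Eyfp reporter, so the wt group controls for Cre and EYFP. Cebpa-Cre acts in cells that have switched on Cebpa, a transcription factor gene active in myeloid progenitors, and EYFP reports Cre activity and not the state of the Dicer1 alleles in each cell. Fetal liver cells of embryonic day 13.5 were injected into irradiated (8.5 Gy) C57Bl/6 recipients 6 to 8 weeks old, and tissues were taken 6 to 10 weeks later. The labels call all samples female without saying whether donor or recipient is meant. They do not say which samples share a donor liver, and 1 liver commonly served more than 1 recipient, so the p-values measure the spread between these samples, which may be partly technical.

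Myeloid growth factors bind receptors of 2 kinds on progenitors. Csf1r, Kit and Flt3 are receptor tyrosine kinases, which phosphorylate themselves and their partners once the ligand has paired them. The remaining receptors have no kinase of their own and work through bound Janus kinases: Csf3r as a homodimer, Il6ra with the signal chain gp130, and Csf2ra and Il3ra with a shared beta chain. That chain is Csf2rb, used by the receptors for GM-CSF, IL-3 and IL-5. Mice have a close copy beside it, Csf2rb2, which serves the IL-3 receptor alone. Signals through these receptors set survival, proliferation and the choice between granulocyte and macrophage fates. Dicer1 encodes the ribonuclease that makes mature microRNAs from their precursors.

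Dicer1 probe set 1460571_at gave signals of 115, 101 and 97.2 on the null arrays, 169, 201 and 187 on the het arrays and 244, 228 and 223 on the wt arrays. Its log2 change was -1.07 in null against wt (limma adjusted p = 3.58e-05), and the order of the groups followed their labels. The other Dicer1 probe set, 1427941_at, had -1.12 (adjusted p = 7.38e-05). In het against wt 1427941_at was called lower (-0.72, adjusted p = 0.00973) and 1460571_at was not (-0.31, 0.261). In null against het 1460571_at was called lower (-0.76, adjusted p = 0.000823) and 1427941_at was not (-0.41, 0.0557). All 9 GMP markers passed the brightness filter, and their summed signal was 30017 to 32050 on null arrays, 28873 to 33934 on het arrays and 29072 to 32593 on wt arrays. The sum reads mainly Ctsg, Mpo, Ms4a3 and Prtn3, with null means of 8903, 7845, 5212 and 4205, and says little of the dimmer markers. Replicate 2 of the wt group stood apart: it read 2610 for Xist, an RNA of the silenced X chromosome, and 1.13 for the Y-linked Eif2s3y. On the remaining 8 arrays these signals were 16.4 to 30.2 for Xist and 622 to 859 for Eif2s3y. The female label goes with the signals of wt replicate 2 and not with those of the other 8 arrays. The wt group was thus mixed in this respect. The comparisons were therefore also run without that array, and the calls of receptors, pathway genes and markers that changed are given with each group. In sorted cell pools, fewer cells of a type and less RNA per cell cannot be told apart.

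Among the 15 receptor probe sets, 2 rose in null GMPs against wt and 1 fell: the shared beta chain Csf2rb and its copy Csf2rb2 were higher, and the G-CSF receptor Csf3r was lower. These 3 calls are 20% of the 15 probe sets, set beside 11.2% of all 27022 probe sets tested (5.05% called higher and 6.18% called lower). Against het, the same 3 probe sets were called in the same directions, also 20%, where the background was 9.16% (4.41% higher and 4.75% lower). Both comparisons use the null arrays. In het against wt, 0 of 15 were called by limma, with a background of 1.03%, and 1 had an unadjusted p under 0.05, as 11.7% of all probe sets had. Without wt replicate 2, 2 of 15 were called in null against wt: Csf2rb 1455660_at stayed higher, the calls of Csf2rb2 and Csf3r were lost, and Il6ra 1452416_at was called lower. Over the 9 fits that left out 1 array, 1835 to 3047 of all 27022 probe sets were called in this comparison. In null against wt the unadjusted p was under 0.05 for 7 of 15, and for 25.8% of all probe sets tested. The median log2 change of the 15 was 0.13 in null against wt, where that of all probe sets tested was -0.06. It was 0.08 in null against het, where the median of all was -0.05, and 0.11 in het against wt, where it was -0.01. The values of the 3 null and 3 wt arrays did not overlap for 6 of the 15, 4 higher and 2 lower. Such separation was seen in 30.1% of all probe sets tested, 11.5% higher and 18.5% lower.

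**Figure D1:**
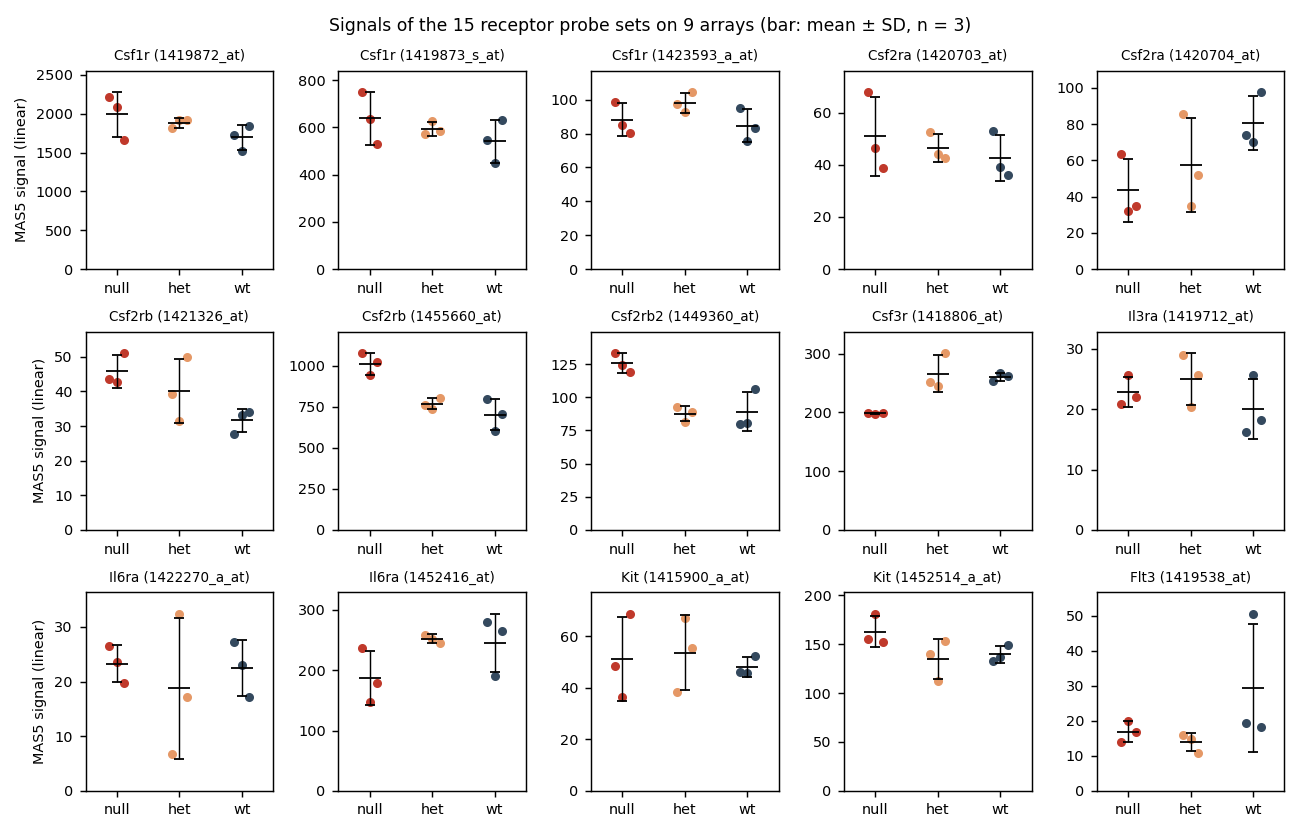
Deposited MAS5 signal (linear scale, vertical axis) of the 15 receptor probe sets on each array, 1 panel for each probe set, with the 3 null arrays on the left, the 3 het arrays in the middle and the 3 wt arrays on the right. Points are arrays, and bars give the mean ± SD (n = 3). The null arrays lie above all others in the panels of Csf2rb 1455660_at (943 to 1075) and Csf2rb2 (119 to 133), and below all others in that of Csf3r (197 to 199).

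The smallest p among the 15 in null against wt was that of the shared beta chain. Csf2rb probe set 1455660_at had signals of 1075, 943 and 1021 on the null arrays, 761, 739 and 804 on the het arrays and 796, 606 and 707 on the wt arrays. Each null array lay above each of the other 6. The mean was 1013 ± 66.4 in null GMPs, 768 ± 32.9 in het GMPs and 703 ± 95.3 in wt GMPs (SD, n = 3 each). The log2 change of null against wt was 0.53 (SE 0.10), a 1.44-fold rise on the scale of log2(signal + 12), with a limma p of 0.00386 after Benjamini-Hochberg adjustment over all probe sets tested. Against het it was 0.39 (SE 0.10, adjusted p = 0.0238). In het against wt the change was 0.13, with a 95% interval of -0.08 to 0.35 (adjusted p = 0.664). The rise over wt was called under all 19 other settings run, with log2 changes of 0.43 to 0.62. The rise over het was called under 14 of 19, and was lost without the intensity trend (adjusted p = 0.104), without null replicate 1 (0.0866) or 3 (0.0736), and without het replicate 1 (0.0774) or 2 (0.0921).

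A second Csf2rb probe set, 1421326_at, gave 43.5, 42.7 and 51.2 on the null arrays, 39.1, 31.4 and 49.9 on the het arrays and 27.8, 33.1 and 34.0 on the wt arrays. The null values lay above the wt values, and the het values spread across both. Its log2 change of null against wt was 0.41 (SE 0.16), which did not pass the threshold (adjusted p = 0.132). The changes read by the pair of Csf2rb probe sets differed by 0.12, with an exact permutation p of 0.5 where the smallest possible is 0.1.

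Csf2rb2, the IL-3-specific copy, gave signals of 133, 124 and 119 on the null arrays, 93.0, 81.2 and 88.7 on the het arrays and 80.1, 80.7 and 106 on the wt arrays. As for Csf2rb, the lowest null array exceeded the highest of the others. The means were 126 ± 7.25 in null GMPs, 87.6 ± 5.95 in het GMPs and 88.9 ± 14.8 in wt GMPs (SD, n = 3 each). The log2 change was 0.46 (SE 0.13, adjusted p = 0.0334) in null against wt and 0.47 (SE 0.13, adjusted p = 0.0348) in null against het. In het against wt it was -0.01, with a 95% interval of -0.28 to 0.26 (adjusted p = 0.987). The direction held under every setting run, but the calls were close to the threshold. The rise over wt was called under 11 of 19 other settings, and its adjusted p was 0.102, 0.0706 and 0.0634 without null replicates 1, 2 and 3, and 0.11 and 0.106 without wt replicates 1 and 2. The rise over het was also called under 11 of 19, and its adjusted p was 0.109, 0.0721 and 0.0695 without null replicates 1, 2 and 3, and 0.0699, 0.125 and 0.0727 without het replicates 1, 2 and 3. Csf2rb and Csf2rb2 are close copies that neighbour each other on chromosome 15, with 0 annotated genes between them in GRCm38.p6. Whether a probe set of one also reads the other was not tested.

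The promoter window of Csf2rb2 is shown because this gene rose together with its neighbour, and it can be read beside that of Csf3r, which fell. RefSeq windows of 250 bases before to 50 after the gene start (GRCm38.p6) were matched for 7 of the 9 genes, all but Csf1r and Csf2rb. The Csf2rb2 window is chr15:78305672-78305971, minus strand, written 5′ to 3′ along the gene, with matches to the core GAGGAA of the myeloid factor PU.1 in capitals, here as TTCCTC, its letters on the opposite strand.
Csf2rb2: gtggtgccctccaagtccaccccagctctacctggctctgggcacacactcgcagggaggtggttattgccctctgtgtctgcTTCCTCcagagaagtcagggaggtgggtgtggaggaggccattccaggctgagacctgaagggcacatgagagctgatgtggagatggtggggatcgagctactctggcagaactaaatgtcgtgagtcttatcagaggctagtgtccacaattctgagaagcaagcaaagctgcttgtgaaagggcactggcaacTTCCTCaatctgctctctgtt
The Csf3r window is chr4:126024409-126024708, plus strand. Its capitals mark the same PU.1 core and 1 match to the C/EBP core TTGCG, which lies on the opposite strand.
Csf3r: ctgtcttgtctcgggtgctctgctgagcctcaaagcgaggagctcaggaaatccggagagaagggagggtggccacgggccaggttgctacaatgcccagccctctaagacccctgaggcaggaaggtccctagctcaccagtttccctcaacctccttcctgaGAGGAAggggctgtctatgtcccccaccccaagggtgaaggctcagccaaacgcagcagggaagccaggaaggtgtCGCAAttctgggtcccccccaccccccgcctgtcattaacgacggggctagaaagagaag
On either strand, GAGGAA stood in 28.3% of 32851 promoter windows of the same length and in 5 of the 7 receptor windows: Csf2ra, Csf2rb2, Csf3r, Il6ra and Kit. TTGCG stood in 17.4% of all windows and in 3 of the 7: Csf3r, Il3ra and Il6ra. The RUNX letters TGTGGT stood in 16.8% of all windows and in 0 of the 7. Each motif was searched on both strands by its exact letters, no match of one overlapped a match of another in the windows printed, and the motifs were chosen after the windows had been seen. A match describes these letters and shows no binding. Spi1, which encodes PU.1, had a log2 change of -0.09 in null against wt, and Cebpa one of -0.33 (adjusted p = 0.116). Neither passed the test. Without wt replicate 1 the fall of Cebpa was called (-0.48, adjusted p = 0.0277).

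Csf3r, the receptor for G-CSF, the main growth factor of neutrophils, was the receptor that fell. Probe set 1418806_at gave 199, 197 and 198 on the null arrays, 252, 245 and 302 on the het arrays and 254, 267 and 261 on the wt arrays. The 3 null values lay close together and below all 6 others. The means were 198 ± 0.893 in null GMPs, 266 ± 30.9 in het GMPs and 261 ± 6.42 in wt GMPs (SD, n = 3 each). The log2 change was -0.38 (SE 0.10, adjusted p = 0.0266) in null against wt, 1.30-fold lower on the scale of log2(signal + 12), and -0.40 (SE 0.10, adjusted p = 0.0231) in null against het. In het against wt it was 0.02, with a 95% interval of -0.19 to 0.24 (adjusted p = 0.962). The fall kept its direction under every setting, and it was called under 12 of 19 against wt and 14 of 19 against het. Against wt the adjusted p was 0.0623, 0.0613 and 0.0715 without null replicates 1, 2 and 3, and 0.0531, 0.0722 and 0.0715 without wt replicates 1, 2 and 3. Against het it was 0.0572, 0.0538 and 0.0676 without null replicates 1, 2 and 3, and 0.0921 without het replicate 3.

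No probe set of the ligand-binding alpha chains was called in any of the 3 comparisons. Csf2ra binds GM-CSF, and its 2 probe sets gave changes of opposite sign. Probe set 1420704_at gave 63.4, 31.8 and 35.0 on the null arrays, 85.8, 35.0 and 51.7 on the het arrays and 74.0, 70.1 and 97.8 on the wt arrays. All null values lay below all wt values, and the het values covered most of the range of both. The log2 change of null against wt was -0.77 (SE 0.25), with a 95% interval of -1.31 to -0.23, and missed the threshold (adjusted p = 0.0647). It was called when only the null and wt arrays were fitted (adjusted p = 0.0426) and without null replicate 1 (0.0257), het replicate 1 (0.0361) or het replicate 2 (0.0471).

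The other Csf2ra probe set, 1420703_at, gave 68.0, 46.3 and 38.8 on the null arrays, 52.6, 44.3 and 42.7 on the het arrays and 52.8, 39.0 and 36.0 on the wt arrays. Here the 3 groups overlapped, and the log2 change of null against wt was 0.19 (SE 0.18, adjusted p = 0.565). The difference between the changes of the 2 probe sets was 0.97, with no overlap of the per-array differences, and its exact permutation p was 0.1, the smallest that 3 against 3 arrays can give. The sign of the change estimated for Csf2ra depends on the probe set.

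Il3ra is the alpha chain that binds IL-3. Its probe set gave 20.9, 25.6 and 22.0 on the null arrays, 29.0, 20.4 and 25.7 on the het arrays and 16.2, 25.6 and 18.2 on the wt arrays. The groups overlapped, and the log2 change of null against wt was 0.13 (95% interval -0.25 to 0.52, adjusted p = 0.705). The IL-5 receptor alpha chain Il5ra, the third partner of Csf2rb, had signals of 0.924 to 18.2 over the 9 arrays, with a mean below the filter.

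Il6ra binds IL-6. Probe set 1452416_at gave 237, 147 and 178 on the null arrays, 259, 253 and 245 on the het arrays and 281, 190 and 265 on the wt arrays. The null values lay below the het values and overlapped the wt values. Its log2 change was -0.37 (SE 0.16, adjusted p = 0.157) in null against wt and -0.43 (SE 0.16, adjusted p = 0.118) in null against het, neither called. Without null replicate 1 both passed, with adjusted p-values of 0.0449 and 0.0362, and without wt replicate 2 the change against wt passed (0.0453). The other probe set, 1422270_a_at, ranged over 19.7 to 26.5 on the null arrays, 6.79 to 32.4 on the het arrays and 17.1 to 27.2 on the wt arrays, and its log2 change of null against wt was 0.04 (adjusted p = 0.946).

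**Figure D2:**
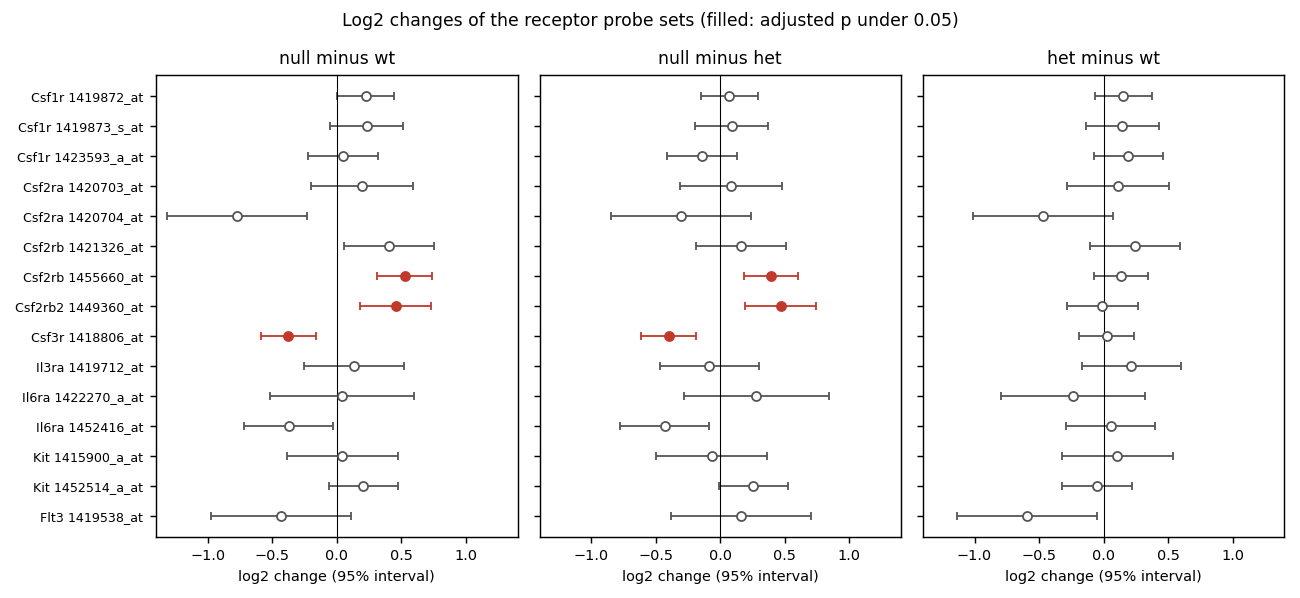
Log2 change (horizontal axis, on the scale of log2(signal + 12)) of each of the 15 receptor probe sets with its 95% interval, for null minus wt, null minus het and het minus wt. Filled points passed an adjusted p of 0.05 in limma. Csf2rb 1455660_at (0.53 and 0.39) and Csf2rb2 (0.46 and 0.47) are filled to the right of 0 and Csf3r (-0.38 and -0.40) to the left in the panels with null arrays, and no point is filled for het minus wt.

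None of the 6 probe sets of the receptor tyrosine kinases passed the test in any of the 3 comparisons. Csf1r is the receptor for M-CSF and IL-34 on the macrophage lineage. Its probe set 1419872_at gave 2220, 2088 and 1665 on the null arrays, 1811, 1914 and 1921 on the het arrays and 1719, 1522 and 1847 on the wt arrays. Of the null arrays, 2 lay above all others and null replicate 3 fell among the wt values. The log2 change of null against wt was 0.22 (SE 0.10), with an unadjusted p of 0.0484 and an adjusted p of 0.19. Without null replicate 3 it was called (adjusted p = 0.0396).

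Csf1r probe set 1419873_s_at gave 751, 636 and 529 on the null arrays, 571, 626 and 584 on the het arrays and 545, 448 and 631 on the wt arrays, with a log2 change of 0.23 in null against wt (adjusted p = 0.297). Probe set 1423593_a_at gave 98.9, 85.2 and 80.3 on the null arrays, 97.2, 93.0 and 105 on the het arrays and 94.9, 75.8 and 83.5 on the wt arrays, with a log2 change of 0.05 (95% interval -0.22 to 0.32, adjusted p = 0.856). The groups overlapped for both.

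Kit is the receptor for stem cell factor and part of the surface phenotype by which myeloid progenitors are usually gated. Probe set 1452514_a_at gave 155, 181 and 152 on the null arrays, 140, 112 and 153 on the het arrays and 132, 137 and 149 on the wt arrays. The null values lay just above the wt values, with 152 against 149 at the nearest, and the log2 change of 0.20 had a 95% interval of -0.06 to 0.47 (adjusted p = 0.338). Probe set 1415900_a_at gave 48.4, 36.3 and 68.9 on the null arrays, 38.3, 67.2 and 55.7 on the het arrays and 46.1, 45.8 and 52.4 on the wt arrays. Its groups overlapped, and its log2 change of null against wt was 0.04 (95% interval -0.39 to 0.47, adjusted p = 0.928).

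Kit is a described target of miR-221 and miR-222, which Dicer matures. Their mature sequences from RefSeq are shown because they share the seed, bases 2 to 8, given in capitals.
mmu-miR-221-3p: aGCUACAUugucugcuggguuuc
mmu-miR-222-3p: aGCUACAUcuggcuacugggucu
MicroRNA levels were not measured on these arrays. The 95% intervals of the log2 change of Kit in null against wt were -0.06 to 0.47 (1452514_a_at) and -0.39 to 0.47 (1415900_a_at). Any part of these microRNAs in the Kit values was not tested.

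Flt3 is the receptor of early multipotent and dendritic precursors. Its probe set gave 14.1, 19.9 and 16.8 on the null arrays, 16.0, 14.7 and 10.9 on the het arrays and 19.2, 50.6 and 18.2 on the wt arrays. The high value of 50.6 is that of wt replicate 2, the array that stood apart by Xist, and the other 8 arrays lay between 10.9 and 19.9. The log2 change was -0.44 in null against wt (adjusted p = 0.309) and -0.59 (SE 0.25) in het against wt, with an unadjusted p of 0.0339 and an adjusted p of 0.377. Without wt replicate 2 these changes were -0.09 (adjusted p = 0.848) and -0.25 (0.742). Between het and wt the values did not overlap for this probe set, which was lower, and for no other of the 15. Such separation was seen in 17.2% of all probe sets tested, 7.84% higher and 9.35% lower.

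In null against wt, the call of Csf2rb 1455660_at was removed by none of the 19 other settings. The log2 change of Csf2rb2 ranged over 0.39 to 0.57 under them and that of Csf3r over -0.39 to -0.35, while their adjusted p-values fell on either side of 0.05.

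**Figure D3:**
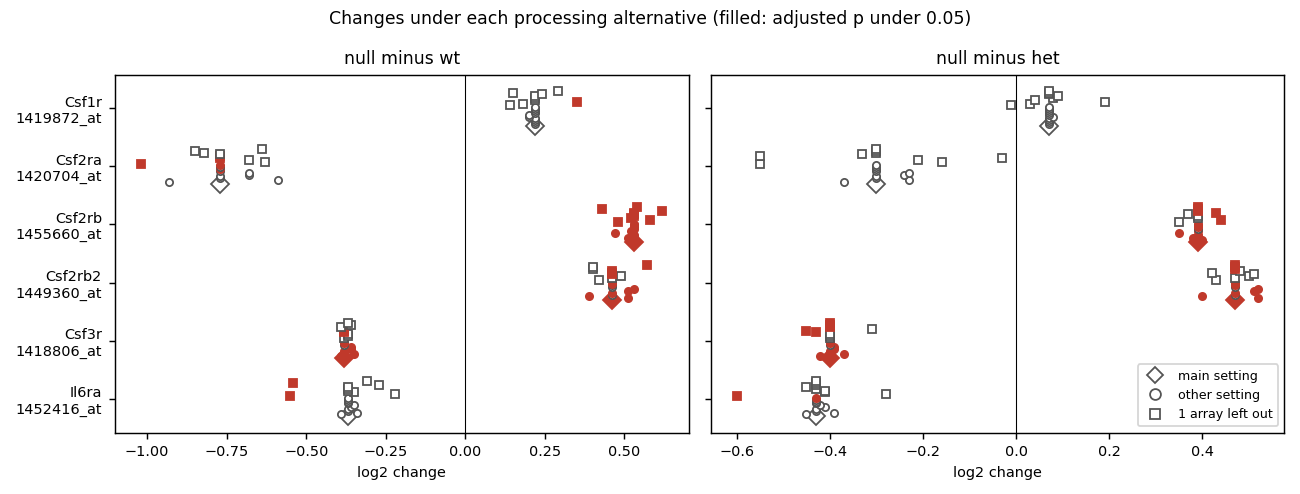
Log2 change (horizontal axis) of the 6 receptor probe sets called under at least 1 setting, in null minus wt and null minus het under the main setting (diamond), under other settings (circles) and with 1 array left out (squares). Filled marks passed an adjusted p of 0.05. All marks of Csf2rb 1455660_at are filled in null minus wt (0.43 to 0.62), and filled and open marks mix for Csf2rb2 and Csf3r at nearly the same position.

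Over the 9 arrays, the genes whose log2 signals ran most like those of the 3 called receptors were found among 12348 others. For Csf2rb they were Cd47, which encodes a surface signal against phagocytosis (Pearson r = 0.987), and Dipk1a (r = 0.984). For Csf2rb2 they were Rnpep, an aminopeptidase gene (r = 0.975), and Ampd3, an AMP deaminase gene (r = 0.948). For Csf3r they were Lrrc14 (r = 0.97) and Repin1 (r = 0.969). These values describe 9 arrays that share 3 genotypes, and the highest of many correlations is high by selection.

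The genes that act with these receptors were read from lists with 1 probe set for each gene, the one with the highest mean. Their p-values are those adjusted over all 27022 probe sets. At that level 13.5% of 12349 genes were called in null against wt, 6.60% higher and 6.92% lower, and the median of all genes was -0.04. The share called in null against het was 12.1%, 5.95% higher and 6.13% lower. Of the 9 ligands, 3 were tested and 0 were called: Csf1 had a log2 change of 0.53 (adjusted p = 0.178), Kitl -0.49 (0.165) and Il6 0.02 (0.963). At an unadjusted p under 0.05 there were 2, Csf1 and Kitl. Csf1 was called without wt replicate 2 (0.78, adjusted p = 0.0477). Csf2, Il3 and Il5, the ligands of the receptors with the shared chain, were below the filter on all 9 arrays.

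Among 12 other haematopoietic cytokine receptor chains tested, 1 rose in null against wt and 0 fell. It was Il10rb, the second chain of the IL-10 receptor, with a log2 change of 0.62 (adjusted p = 0.00731), and it rose over het as well (0.85, adjusted p = 0.00123). Another Il10rb probe set showed -0.09 in null against wt (adjusted p = 0.811). Ifngr2, the second chain of the interferon gamma receptor, had 0.51 and lay at the threshold (adjusted p = 0.0502). It passed under 6 of 19 other settings, among them without null replicate 3 (0.0144) and without wt replicate 1 (0.0216). Ifngr1 (0.21) and Ifnar2 (0.15) were not called.

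Of 19 JAK, STAT and SOCS genes, the core of cytokine receptor signalling, 1 fell and 0 rose in null against wt. Stat5a, a STAT activated by GM-CSF and IL-3, had a log2 change of -0.40 (SE 0.09, adjusted p = 0.0148), and its call was lost without wt replicate 2 (adjusted p = 0.0576). Jak1 had 0.32 (adjusted p = 0.052). In null against het Jak1 rose by 0.49 (adjusted p = 0.00704), while its other tested probe sets gave -0.11 and 0.15. Socs6 (0.31, adjusted p = 0.0689) and Socs4 (0.22, 0.156) were not called.

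Of 28 adaptors and kinases next to the receptors, 2 rose and 1 fell in null against wt. Crk, an adaptor that links phosphorylated receptors to small GTPases, rose by 0.83 (SE 0.08, adjusted p = 3.55e-05), and Gab1, a docking protein for PI3 kinase and Shp2, by 0.66 (adjusted p = 0.00803). Of the 4 further Crk probe sets, 2 were called higher (0.54 and 0.72) and 2 were not called (-0.13 and 0.04). Another Gab1 probe set gave 0.54 (adjusted p = 0.108). Grb2, the adaptor that brings Sos to receptors, fell by 0.36 (adjusted p = 0.0221), and its call was lost without null replicate 1 (0.0758), wt replicate 1 (0.0581) or wt replicate 3 (0.0981). Another Grb2 probe set gave -0.12 in null against wt (adjusted p = 0.554) and -0.18 in null against het (0.382). Pik3cg, a PI3 kinase subunit of blood cells, was not called (0.32, adjusted p = 0.0661). Against het, 3 of the 28 rose, among them Crk (0.93), and Grb2 fell (-0.58, adjusted p = 0.00193), a share near that of all genes. The other risers over het were Pik3ca (0.64) and Sos1 (0.50), which fall outside the naming rule and were chosen after their values had been seen. The call of Pik3ca was lost without het replicate 1 (adjusted p = 0.0506), and that of Sos1 without null replicate 1 (0.0638), null replicate 3 (0.0673) or het replicate 1 (0.0801). Of the 4 further Pik3ca probe sets 1 was called higher (0.60), and of the 3 further Sos1 probe sets 0 were called (-0.16 to 0.72).

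Among 24 inhibitors and genes of receptor degradation, 4 rose and 1 fell in null against wt. The risers were Rasa1, a GTPase-activating protein of Ras (0.49, adjusted p = 0.00221), Adam10, a protease that sheds surface proteins (0.44, 0.00228), Ptprc, the phosphatase CD45 (0.36, 0.0175), and Sh2b3, an adaptor that restrains Kit and Jak2 (0.47, 0.0248). Sh2b3 lies outside the naming rule and was chosen after its value had been seen. Another Ptprc probe set went the other way (-0.98, adjusted p = 0.0153). Another Adam10 probe set gave 0.27 (adjusted p = 0.349), and those of Rasa1 gave 0.40 (0.0332) and 0.41 (0.168). Without wt replicate 2 the call of Ptprc (0.0625) and that of Sh2b3 (0.0572) were lost, which left 2 higher. The call of Ptprc was also lost without null replicate 1 (0.0574), null replicate 3 (0.0661) or wt replicate 3 (0.0599), and that of Sh2b3 without null replicate 1 (0.0804), null replicate 3 (0.0861) or wt replicate 3 (0.0879).

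Dusp6, the phosphatase of ERK that is itself induced by ERK signalling, fell by 1.33 on the log2 scale in null against wt (SE 0.12, adjusted p = 9.81e-06). Against het it fell by 0.81.

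Of 20 transcription factors with described sites in receptor genes, 2 rose and 1 fell in null against wt. Hoxa9, a homeobox factor of early progenitors, rose by 2.19 (SE 0.33, adjusted p = 0.00083), and Gfi1, a repressor needed for neutrophil formation, by 0.59 (adjusted p = 0.000899). Another Hoxa9 probe set gave 0.53 and was not called (adjusted p = 0.107). Mitf, a factor of mast cells and other lineages, was called lower by a narrow margin (-0.37, adjusted p = 0.0486), a call that 15 of 19 other settings lost, the leaving out of any 1 array among them (adjusted p = 0.0519 to 0.176). Another Mitf probe set gave -0.58 (adjusted p = 0.367). Irf8, a factor of the monocyte and dendritic lineages, had -0.37 in null against wt (adjusted p = 0.0581), which was called without wt replicate 2 (-0.48, 0.0222) and without null replicate 1 (-0.45, 0.0465). Against het 2 rose in null GMPs, Hoxa9 and Gfi1, and 2 fell, Irf8 by 0.66 (adjusted p = 0.00369) and Klf4, a factor of monocyte formation, by 0.79 (0.0309). Klf4 was chosen after its values had been seen. Its change in null against wt was -0.66 (adjusted p = 0.059), which was called without wt replicate 2 (-0.90, 0.0117), so that 2 of the list, Irf8 and Klf4, were then lower and Mitf was not. Another Klf4 probe set gave -0.08 in null against het (adjusted p = 0.896), and another Irf8 probe set gave -1.21 (0.00304). Mitf had -0.34 in null against het (adjusted p = 0.0722) and was called there without wt replicate 2 (0.0493).

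Of 12 genes listed from general knowledge as induced by these receptors, 2 rose in null against wt and 0 fell. Whether the receptors had a part in these changes was not tested. Cdkn1a, the cell cycle inhibitor p21, rose by 1.67 (SE 0.15, adjusted p = 8.11e-06), and Pim1, a kinase gene induced through STAT5, by 1.14 (SE 0.13, adjusted p = 7.80e-05). Both were called under all 19 other settings. Another Cdkn1a probe set was called higher too (1.27, adjusted p = 0.0111). Another Pim1 probe set showed 0.15 (adjusted p = 0.702). Ccnd2, a D-type cyclin gene, had 0.30 (adjusted p = 0.0515), and was called without null replicate 3 (0.0482) or het replicate 3 (0.0468). Osm, a cytokine gene, had -0.49 (adjusted p = 0.0834).

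In het against wt, 0 genes of any of the 7 lists were called by limma, where the background was 1.17%. The genes that came nearest to a call in each list are given by value. Dusp6 came closest to the threshold, with a log2 change of -0.52 (adjusted p = 0.0543). It was called under 6 of 19 other settings, among them without null replicate 2 (0.0355) and without null replicate 3 (0.0344). Spry2, an inhibitor of Ras signalling, had 0.37 (adjusted p = 0.0674), and Socs6 had 0.41 (0.0947). Id1, an inhibitor of differentiation factors, had 0.72 (adjusted p = 0.135), and Pim1 had 0.42 (0.173). Pim1 was called without wt replicate 2 (0.58, adjusted p = 0.015). Myb (0.21) and Cebpd (0.37), Gab1 (0.44) and Crkl (-0.27), Csf1 (0.49) and Il6 (-0.19), Socs7 (-0.22), Il10rb (-0.23) and Epor (0.35) were not called.

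**Figure D4:**
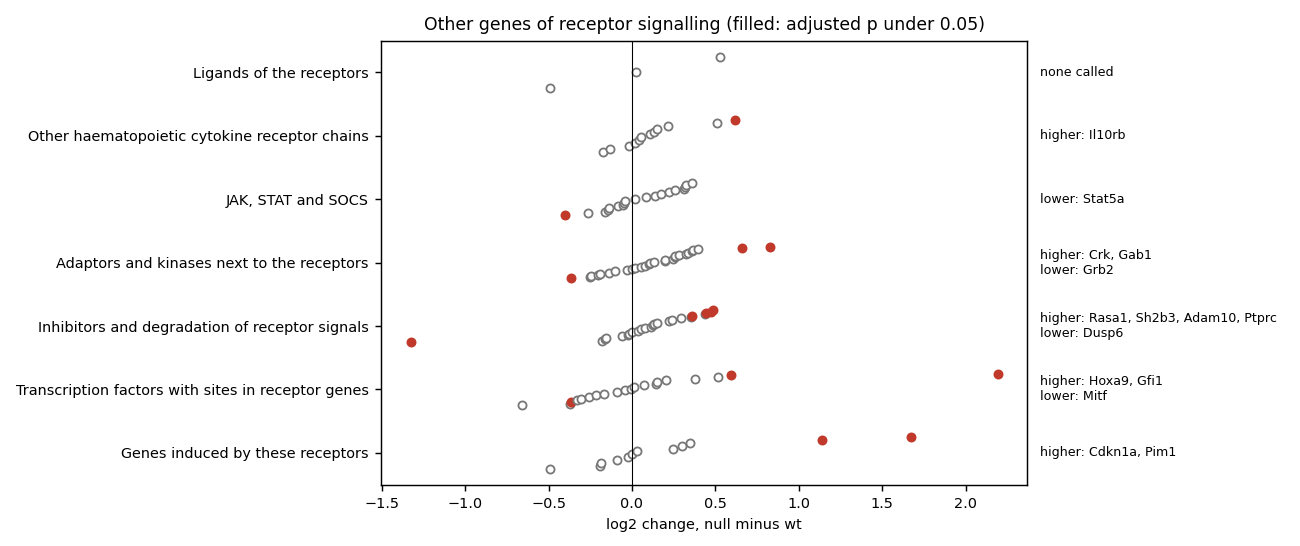
Log2 change in null minus wt (horizontal axis) of the tested genes of 7 lists of receptor signalling, 1 point for each gene. Filled points passed an adjusted p of 0.05, and the called genes are named at the right. The filled points farthest from 0 are Hoxa9 (2.19), Cdkn1a (1.67), Dusp6 (-1.33) and Pim1 (1.14).

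Markers of other cell types that could enter the sort were read beside these values. Of all 12349 genes tested, 13.5% were called in null against wt, 12.1% in null against het and 1.17% in het against wt. Eosinophils use the receptors with the Csf2rb chain. Their 3 tested markers, Epx (log2 change 0.94), Prg2 (0.63) and Prg3 (0.55), were all called higher in null against wt, and the summed signal of the list was 665 to 1003 on null arrays, 577 to 753 on het arrays and 407 to 611 on wt arrays. The call of Prg2 was lost without wt replicate 2 (adjusted p = 0.0712), where Prg3 was called higher in het against wt (0.85, 0.0391). In null against het these 3 markers were not called. Epx had 0.45 (adjusted p = 0.154) and Prg2 0.55 (0.073), while Prg3 went the other way (-0.16, 0.624). The eosinophil marker Ccr3 was below the filter on all arrays. The summed signal of mast cell and basophil markers was 5201 to 7360 on null arrays, 3991 to 4695 on het arrays and 4456 to 6688 on wt arrays, with Cd200r3 (1.14) called higher and Fcer1a (-2.25) called lower in null against wt among 7 tested. In null against het, where Csf2rb and Csf2rb2 also rose, Cpa3 (0.56, adjusted p = 0.0179) and Hdc (0.44, 0.0232) were called higher, and Mcpt8 had 0.61 (0.0502). Another Hdc probe set gave 0.11 (adjusted p = 0.764). Fcer1a (0.86, adjusted p = 0.159), Cd200r3 (0.59), Ms4a2 (0.24) and Gata2 (-0.21) were not called in that comparison. Mcpt8 (adjusted p = 0.0388) and Fcer1a (0.86, 0.0183) were called there without wt replicate 2. Fcer1a was called lower in het against wt (-3.11). The part of these cells in the rise of Csf2rb and Csf2rb2 was not tested.

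Neutrophils carry Csf3r at high levels. Of 11 neutrophil markers tested, 2 were lower in null against wt, the secondary granule genes Ltf (-2.09) and Ngp (-2.12), and 0 were higher. Of all genes, 6.92% were called lower in that comparison and 6.60% higher. The summed signal was 2466 to 8886 on null arrays, 2820 to 5086 on het arrays and 4054 to 7547 on wt arrays. Its largest parts were S100a8 and S100a9, with null means of 2981 and 2178, where Ltf had 17.2 and Ngp 98.0. Ltf (-1.97), Ngp (-1.86) and Lcn2 (-1.78) were called lower in het against wt, where Csf3r had a log2 change of 0.02. Of all genes, 0.615% were called lower there. The call of Ngp was lost there without wt replicate 2 (-1.44, adjusted p = 0.0502). In null against het, where Csf3r also fell, Ltf (-0.12) and Ngp (-0.26) were not called and Lcn2 was higher (2.07). The part of these cells in the fall of Csf3r was not tested.

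The remaining marker lists were read the same way in null against wt, where 6.60% of all genes were called higher and 6.92% lower. Of the 9 GMP markers, Fcgr2b (log2 change 0.64) and Fcgr3 (0.37) were called higher and 0 lower. Other Fcgr2b probe sets gave 0.57 (adjusted p = 0.00529), 0.47 (0.0386) and 0.17 (0.5). Without wt replicate 2 the call of Fcgr3 was lost (0.33, adjusted p = 0.0552) and Elane, neutrophil elastase, was called lower (-0.36, 0.0496). Of 7 monocyte and macrophage markers, Lyz2 (0.82) was higher and Cd68 (-0.48) lower. The call of Cd68 was lost without wt replicate 2 (adjusted p = 0.0601), where Ms4a6c was called lower (-0.58, 0.00166). Ms4a6c (-0.42, adjusted p = 0.00632) and Adgre1 (-0.51, 0.024) were then also called lower in null against het. Of 10 dendritic markers, the class II genes H2-Aa (-1.37) and H2-Eb1 (-0.92) were lower. Of 6 lymphoid markers, Nkg7 (-0.40) and Klrd1 (-0.65) were lower, and the call of Klrd1 was lost without wt replicate 2 (adjusted p = 0.153). Mean signals on null and wt arrays were 859 and 1129 for Nkg7, and 8.94 and 20.6 for Klrd1. The null mean of Klrd1 was just below the filter signal of 9.006. Of 7 stem and multipotent markers, among them Flt3, Hlf was higher (0.56), while another Hlf probe set gave 0.41 and was not called (adjusted p = 0.177). Of 8 erythroid and megakaryocyte markers 0 were called by limma, with 0 at an unadjusted p under 0.05. Without wt replicate 2, Klf1 was called higher in het against wt (1.41, adjusted p = 0.0333) and Car1 lower in null against het (-0.96, 0.0458).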

How the data were processed

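RNA of sorted EYFP-positive GMPs was measured on 9 Affymetrix arrays, 3 each of null, het and wt. The deposited values are MAS5 signal intensities, 1 for each probe set, with MAS5 named per the submitters' processing notes and no version given. Their trimmed mean (2% off each end) was 100 on all arrays, so a shift common to most RNAs is lost. Median signals were 12.4 to 16.1. For arrays the number of replicates limits the precision. Detection calls, scanner files and scan batches were not used here.

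The 45101 probe sets less 64 controls were transformed as log2(signal + 12), which understates changes of dim genes. Those with a mean at or above the 40th percentile (27022) entered a limma fit (version 3.58.1, R 4.3.3; intensity trend, all 9 arrays, residual degrees of freedom 6, prior 7.98). Two-sided tests were used, with p-values adjusted by the Benjamini-Hochberg method over all 27022 and calls under 0.05. SE and 95% intervals are those of this fit. Differences between probe sets of a gene were tested by two-sided exact permutation. Comparisons share arrays.

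Gene names came from the platform annotation: 34945 probe sets had 1 symbol, 932 several and 9160 none. Entrez identifiers of 34741 matched RefSeq of GRCm38.p6, and 0 symbols changed. On simulated arrays for null against wt (27022 probe sets, 200 changed), 55% of changes of 2-fold and 25% of changes of 1.5-fold were recovered, with 7 false calls and 0 of the wrong sign. Changes of the size seen in the receptors can thus be missed. The criterion for accepting this simulation was first a minimum share recovered, which was not met. It was replaced, with the outcome known, by limits on bias and false calls.

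The receptors, the 7 pathway lists and the 9 marker lists were chosen with earlier results of these data known. Named were all receptor probe sets, Dicer1, from each pathway list the 4 genes of lowest p for null against wt and the 2 of lowest p for het against wt, and the 2 genes most correlated with each called receptor. Other pathway genes and markers were chosen after their values were seen. Alternatives changed the pseudocount, filter, normalization, variance trend, arrays in the fit, replicate block and use of several probe sets, and left out each array.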

Additional observations from a re-analysis of the deposited data

How the results depend on the processing

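The results were recomputed under 19 other settings, 9 of which left out 1 array each. The main counts of called probe sets were 3036 in null against wt, 277 in het against wt and 2475 in null against het, with 3, 0 and 3 receptor probe sets among them. Without the intensity trend these counts were 1797, 138 and 1153, with 1, 0 and 0 receptor probe sets. Fitted on 1 probe set for each gene, with p-values adjusted over these 12349 alone, they were 1941 and 172 in null and in het against wt, and without a filter 181 in het against wt. With 1 array left out they ranged over 1835 to 3047 in null against wt (1 to 4 receptor probe sets), 147 to 284 in het against wt (0) and 1238 to 2619 in null against het (0 to 3). The cause was not tested.

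Same-numbered arrays deviated together at correlations of -0.03 to 0.175, not all over 0.1, so the numbers were not taken to pair the samples. Arrays with different numbers were not compared in this way, so these correlations cannot decide whether the samples were paired. With the replicate block the counts were 3455, 334 and 2770, with 4, 0 and 4 receptor probe sets. Under the block Csf2ra 1420704_at joined the calls in null against wt (adjusted p = 0.0226) and Il6ra 1452416_at those in null against het (0.0458).

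The calls of Csf2rb2 were also lost without a filter, against wt (adjusted p = 0.0543) and het (0.056), and without the trend (0.06 and 0.068), and against wt with only those groups fitted (0.0562). Those of Csf3r were lost without the trend (0.0686 and 0.0692). Among 828 values of receptor probe sets under other settings 43 changed side of the threshold and 22 changed sign, and of 1268 values of Dicer1 and pathway genes 98 changed side and 4 changed sign. Every value that changed sign was uncalled. Under quantile and cyclic loess normalization, Kit 1415900_a_at turned to 0.0015 and 0.01 in null against het, and Csf2rb2 to 0.01 under both in het against wt. Values whose sign turned with 1 array left out had these ranges. In het against wt, Kit 1415900_a_at had -0.04 to 0.29, Kit 1452514_a_at -0.14 to 0.06, Csf3r -0.07 to 0.08, Il6ra 1422270_a_at -0.55 to 0.07, Il6ra 1452416_at -0.11 to 0.16, Csf2rb2 -0.07 to 0.11 and Il6 -0.32 to 0.03. In null against het, Kit 1415900_a_at had -0.26 to 0.11, Csf1r 1419872_at -0.01 to 0.19, Csf1r 1419873_s_at -0.03 to 0.22, Csf2ra 1420703_at -0.10 to 0.23 and Il6ra 1422270_a_at -0.03 to 0.59. In null against wt, Kit 1415900_a_at had -0.15 to 0.22, Il6ra 1422270_a_at -0.07 to 0.14, Csf1r 1423593_a_at -0.03 to 0.12 and Il6 -0.19 to 0.24. Groups of 3 arrays limit all of these tests, and which low signals, such as those of Flt3 and Il3ra, stood above background is unknown, since detection calls were not used here.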
